A study of Mus musculus with 20 samples.

Results

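The deposited striatal count table held 37051 loci, and 10576 of them carried no gene symbol. The 1961 loci described here are those without a symbol whose raw counts summed to at least 500 over the 20 libraries. The members were thus chosen on their counts, not on a difference between groups. Each locus is a stretch of the genome that the submitters' assembly treated as 1 transcribed unit, named by its number in the table (XLOC_033380, for example). The libraries came from whole striatum of 20 male mice of about 6 months, taken 2 hours after an injection. The groups were 5 control mice given saline, 5 control mice given d-amphetamine at 25 mg/kg, 5 overactive mice given saline and 5 overactive mice given d-amphetamine at the same dose. Overactive mice belonged to a line selected for activity in the cage, and the labels call the line of every mouse Collaborative Cross, a mouse population bred from several inbred founder strains. The labels do not say how the selected and control animals were related, so a p-value measures the spread between these mice, whose litters are not given.

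Transcribed loci without a gene name are of several kinds. Some are long noncoding RNAs, which are spliced and polyadenylated like messenger RNAs but code for no known protein. Some are processed pseudogenes, copies of a messenger RNA that were written back into the genome. Others are unspliced or read-through RNA from a neighbouring gene, antisense RNA, or the long precursors from which microRNAs and small nucleolar RNAs are cut. Many are read from the strand opposite to a gene. Such RNAs are often more restricted in tissue and strain than messenger RNAs. In brain, imprinted clusters of small nucleolar RNAs are a known source of abundant noncoding transcripts. Reads from both strands of 1 place, or from near-identical copies, can be assigned to the wrong locus, and the sources used here do not state whether strand was used in the counting. Values of loci that share a span with another locus are therefore uncertain.

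The members that carry a known small RNA or a known pseudogene can be shown by sequence. By position, 35 microRNA hairpins of RefSeq lay in 40 members. Of the 40, 6 differed between the lines, against 7.69% of all loci tested, and are described further on. They held 6 of the hairpins. The mature sequences of these 6 hairpins follow (RefSeq, GRCm38.p6, 5′ to 3′), with the seed, bases 2 to 8, in capitals. miR-6339 lay at chr2:130016369-130016391 on the minus strand, miR-8109 at chr8:85700935-85700955 on the plus strand, and the arms of miR-135a-1 at chr9:106154140-106154162 and chr9:106154179-106154200 on the plus strand. miR-378c lay at chr14:46954905-46954925 and miR-6390 at chr14:105623710-105623730, both on the minus strand. The arms of miR-155 lay at chr16:84714143-84714165 and chr16:84714182-84714202 on the plus strand. No seed was shared between these sequences.
mmu-miR-6339: gAUGCCUUuguccucaguguuag
mmu-miR-8109: gCGCCGCGugccggccgcggg
mmu-miR-135a-5p: uAUGGCUUuuuauuccuauguga
mmu-miR-135a-1-3p: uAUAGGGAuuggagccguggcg
mmu-miR-378c: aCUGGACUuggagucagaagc
mmu-miR-6390: gAAUUGAUcaggauguaacca
mmu-miR-155-5p: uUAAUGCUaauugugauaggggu
mmu-miR-155-3p: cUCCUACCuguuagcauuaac

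XLOC_032942, 295 bases wide, overlapped Rps13-ps1, a processed pseudogene of the ribosomal protein gene Rps13 (GENCODE M21, GRCm38, plus strand). It is shown because its reads differed between the lines, and because reads of Rps13 itself could fall on a copy this close. The stretch printed, chr8:87047934-87048175, is the part inside the member that aligned best to the longest reading frame of Rps13. Over these 242 bases the pseudogene differed from that frame at 2 bases, an identity of 99.2%. Capitals mark the 2 differing bases.
Rps13-ps1: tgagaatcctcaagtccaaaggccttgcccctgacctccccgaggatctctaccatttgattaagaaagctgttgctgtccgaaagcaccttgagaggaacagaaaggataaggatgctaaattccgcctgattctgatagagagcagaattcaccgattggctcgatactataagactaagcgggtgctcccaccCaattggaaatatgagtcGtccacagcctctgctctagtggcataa

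XLOC_030086 held 2 box C/D small nucleolar RNAs of the Snhg14 cluster, Gm25646 (chr7:59379451-59379529) and Gm26498 (chr7:59386081-59386159), both on the minus strand of GRCm38. Small nucleolar RNAs of this class guide the methylation of other RNAs, and their C and D boxes bind the core proteins. Capitals mark the C box (ATGATGA) and the D box (CTGA). The 79 bases of these 2 copies differed at 3 positions. The 94 annotated transcripts under 100 bases in this stretch held 50 different sequences between them. Of the 94, 78 held ATGATGA followed by CTGA on the transcribed strand.
Gm25646: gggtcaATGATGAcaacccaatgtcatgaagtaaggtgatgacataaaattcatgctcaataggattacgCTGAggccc
Gm26498: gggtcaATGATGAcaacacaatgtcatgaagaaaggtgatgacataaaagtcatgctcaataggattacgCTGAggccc

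Libraries held 31393788 to 53773028 counts. Markers of striatal projection neurons summed to 4659 to 7718 CPM (counts scaled to a common library size) in every library, so the labelled tissue was present. In part, markers of neighbouring tissue moved with the line. The 12 thalamic, septal and hypothalamic markers summed to 204 to 330 CPM in control and 231 to 611 CPM in overactive libraries, with a median log2 difference of 0.62 and 0 of 12 called. The 13 loci of cortical and hippocampal markers summed to 912 to 1719 CPM in control saline and 607 to 919 CPM in overactive saline libraries. After amphetamine the lines overlapped, with 1385 to 1853 CPM in control and 721 to 1954 CPM in overactive libraries. Overactive amphetamine 2 and 3 and overactive saline 1 and 4 were the 4 libraries highest in thalamic, septal and hypothalamic markers. Choroid plexus and ependymal markers ranged from 22.8 to 914 CPM, with a median log2 line difference of 0.90 and 2 of 9 loci called. Also called between the lines were 2 of 6 astrocyte, 1 of 5 oligodendrocyte and 1 of 13 cortical loci. The part of these differences in the results below was not tested, and in bulk tissue fewer cells of a type and less RNA per cell cannot be told apart. Zeros over whole spans bear on the results. All 7 loci of the Cwc22 span and all 4 of the Ndrg4 span are listed at exactly 0 in all 10 overactive libraries. Ndrg4, an abundant neuronal gene, held 74237 to 102183 counts over its span in every control library. The cause of these zeros was not tested.

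The 1961 members were many but low. They held 0.508% of all counts (0.464% to 0.561% per library) and 78.3% of the counts of loci without a symbol. The median member had 1025 counts over the 20 libraries, and the 10 with the largest sums held 13.2% of all member counts. Spans ran from 115 bases (XLOC_003615, over the pseudogene Gpx4-ps2 on chromosome 10) to 2282258 bases (XLOC_022276, the span of Ptprd, a receptor tyrosine phosphatase of synapses), with a median of 6907 and quartiles of 3836 and 32159. Members lay mostly apart: with gaps of up to 50000 bases joined, they formed 1470 runs, of which 1152 held 1 member. The longest run, 16 members between chr7:59150859 and 59451486, ran into Snhg14.

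Most members lay close to a named locus. A span was shared with a named locus by 401 members, 849 lay 1 to 5000 bases from the nearest one, 490 lay over 5000 and up to 50000 bases away and 221 lay farther. The median distance, with shared spans as 0, was 1361 bases. Among the 716 members within 5000 bases whose nearest locus had a strand in the annotation, 331 (46.2%) lay downstream of it. At over 5000 and up to 50000 bases this share was 58.8% (231 of 393), and beyond that 50.5% (95 of 188). GENCODE M21, a later and fuller annotation, placed no gene at 825 members. Of 736 members with a span of their own over which it placed 1 or more genes, 253 overlapped a long intergenic noncoding RNA, 239 a protein-coding gene, 117 a processed pseudogene and 72 an antisense RNA. A span of its own did not make a member separate from coding genes. In the order of the table, 57.1% of the members stood in a further series of rows per chromosome, after those of plus-strand and minus-strand genes, and there 8475 of 8515 rows had no symbol.

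Of the 4 largest members by summed count, 3 lay in the span of a named gene and 1 in none. XLOC_021492, in the span of Ppp3ca (the catalytic subunit of calcineurin), had 128386 counts and lay at 134, 169 and 187 CPM (lowest, median and highest) in control and 117, 142 and 180 CPM in overactive libraries. Its fitted difference was -0.21 ± 0.07 (log2, with an approximate SE derived from the F statistic). It did not pass (adjusted p = 0.0906, edgeR), but passed with the replicate block (0.0407), with limma-voom (0.0457) and without overactive saline 2 (0.0279). Ppp3ca itself had -0.20 (adjusted p = 0.0645). XLOC_028462, in the span of Pnmal1, followed with 99889 counts, then XLOC_021573, far from any named gene, with 87619, and XLOC_026516, in the span of the kinase gene Hipk2, with 46144. XLOC_026516 passed between the lines (0.19 ± 0.05, adjusted p = 0.036, edgeR), as did Hipk2 (0.20, adjusted p = 0.0061). The call of XLOC_026516 was lost (adjusted p 0.0506 to 0.0694) without any 1 of control saline 1, 2, 3 and 5, control amphetamine 2 and 5, overactive saline 3 and 4, and overactive amphetamine 2, 3 and 4. It was also lost over loci without a symbol alone (0.0769) and without the 4 libraries highest in thalamic markers (0.0984).

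Per base, XLOC_021573 was the densest member. It spanned 442 bases at chr3:5860336-5860777, 284097 bases from Pxmp3 and with no gene in GENCODE M21, and held 198233 counts per kb of span. Its level was 102, 104, 105, 94.5 and 90.1 CPM in control saline, 87.4, 104, 115, 104 and 105 in control amphetamine, 150, 93.4, 133, 127 and 111 in overactive saline, and 103, 91.7, 97.2, 126 and 68.9 in overactive amphetamine libraries. It was high in all 20 libraries and the groups overlapped. The next by this measure was XLOC_032685 with 40266 counts per kb, 372149 bases from Csmd1, which varied from 3.32 to 41.0 CPM within the control line alone.

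Between the lines, over both treatments, 179 of 1956 members tested passed (9.15%), against 7.69% of all 22146 loci tested. Of these, 87 were higher and 92 lower in the overactive line (backgrounds 3.87% and 3.82%). The test was edgeR's quasi-likelihood F test over all loci, called at a Benjamini-Hochberg adjusted p under 0.05. The median log2 difference, overactive minus control, was 0.01 over members and 0.00 over all loci, and the median size was 0.26 against 0.12. Members also had the wider error, with a median approximate SE of 0.21 against 0.11. Called members were spread over 20 chromosomes and 158 runs, and 101 of the 179 (56.4%) differed by over 1 on the log2 scale. Of the 179, 2 lay in the Cwc22 span listed at 0, and 177 remain without them. Without the 4 libraries highest in thalamic markers, the fit called 65 members, of which 59 were among the 179.

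**Figure D1:**
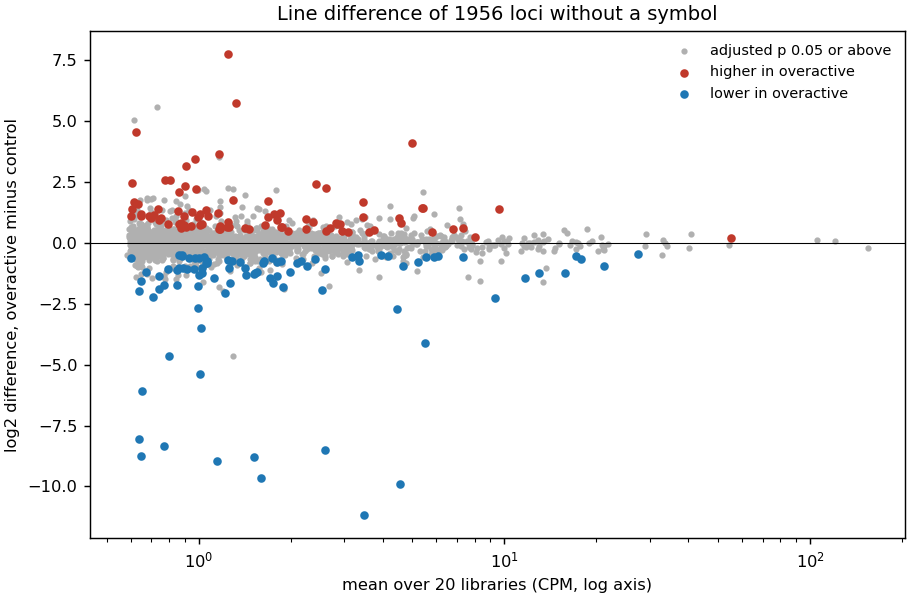
Line difference (log2, overactive minus control, edgeR) of the 1956 members tested against their mean level over 20 libraries (CPM, log axis), 1 point a member. Of these, 87 were called higher (red) and 92 lower (blue) at an adjusted p under 0.05, and the called points beyond -5 are loci with few or no counts in the overactive line, XLOC_032942 among them with 70.

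The share called differed with position and size. It was 12.9% (63 of 488) at over 5000 and up to 50000 bases from the nearest named locus, 7.44% (63 of 847) at 1 to 5000 bases, 8.5% (34 of 400) in a shared span and 8.6% (19 of 221) beyond 50000 bases. By width it was 10.4% over 5000 bases (130 of 1246). It was 6.85% from 1000 to 5000 bases (43 of 628) and 7.32% below (6 of 82). All 6 called members under 1000 bases were lower in the overactive line. Of these, XLOC_020033, XLOC_026890, XLOC_034803 and XLOC_032942 had 1311, 916, 536 and 748 counts in the control line. In the overactive line they had 0, 1, 7 and 70. Their control counts alone met the rule on the summed count, so this shared direction is a description. Chromosome 16 had 17 of 80 tested members called, chromosome 13 had 12 of 89, all of them lower, and the X chromosome 2 of 69. These shares are descriptions, and their differences were not tested.

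Among the 24 members named by smallest p in each direction, the highest-ranked were on chromosome 9. XLOC_034148, at chr9:48132495-48139413 over the noncoding gene Gm40518 and 22603 bases from Fam55d, had 3 counts in the whole control line and 1171 in the overactive line, a ratio of 357 (95% exact counting interval 122 to 1732). It was at 0, 1.53, 1.59, 0.968 and 2.43 CPM in overactive saline and 4.46, 0.747, 2.11, 4.26 and 6.77 CPM in overactive amphetamine libraries. Overactive saline 1 was thus without a count, like 7 control libraries. Fam55d was also higher in the overactive line, by 0.29 (adjusted p = 0.019, edgeR). XLOC_033380 lay on the same chromosome, 334 bases from Rbm7, whose product targets nuclear RNA for decay by the exosome. Its lines did not overlap: 0.358, 0.799 and 1.28 CPM in control (lowest, median, highest) and 1.31, 2.67 and 3.49 CPM in overactive libraries, a log2 difference of 1.70 ± 0.20 (adjusted p = 7.33e-05, edgeR). Rbm7 differed the same way by less, with 0.63 (adjusted p = 0.00275).

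Other members higher in the overactive line lay beside genes that did not pass. XLOC_019932, 70 bases from Nop56 (a core protein of small nucleolar particles), had a median of 0.581 CPM in control and 4.20 in overactive libraries (2.43 ± 0.33, adjusted p = 0.000326), while Nop56 had -0.07 (adjusted p = 0.176). XLOC_026126, over the antisense RNA Gm26703 and 586 bases from Sparcl1 (a secreted protein of astrocytes that acts at synapses), had medians of 2.67 and 7.47 CPM (1.46 ± 0.22). Sparcl1 lay at -0.00 (adjusted p = 0.995). XLOC_025962, 10310 bases from Whsc2 (a subunit of the factor that pauses RNA polymerase II), had medians of 2.37 and 7.75 CPM (1.42 ± 0.24), with Whsc2 at -0.14 (adjusted p = 0.0524). Differences in the same direction were also found for XLOC_006240 near Rab34, a GTPase of vesicle traffic (1.28 ± 0.19), XLOC_026948 near Cecr5 (1.76 ± 0.26) and XLOC_013213 (1.38 ± 0.23). The last lay in the span of Hira, a histone chaperone, and its lines did not overlap, with at most 0.574 CPM in control and at least 0.627 CPM in overactive libraries.

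In a few cases most of a line, but not all, was high. XLOC_012249, in a span on chromosome 15 that it shared with Mettl7a2 and related methyltransferase-like genes, had at most 0.0986 CPM in control. It was at 3.13, 0, 0.0692, 3.22 and 3.38 CPM in overactive saline and 2.64, 3.89, 2.92, 4.11 and 2.65 CPM in overactive amphetamine libraries, so 2 overactive mice lay with the control mice. XLOC_031657 lay 27 bases from the named locus of Scoc (a coiled-coil protein of the Golgi) and overlapped Scoc itself in GENCODE M21. It had at most 1.28 CPM in control. Its overactive amphetamine libraries lay at 0.0614, 0.56, 8.08, 14.9 and 13.1 CPM and its overactive saline libraries at 7.07 to 15.4 CPM (4.11 ± 0.61, adjusted p = 0.000615). The named Scoc locus had -0.21 (adjusted p = 0.107). XLOC_030665, over Gm36737 on chromosome 7, differed by 0.83 ± 0.14, and its nearest locus, the noncoding C030029H02Rik 86665 bases away, by 0.82.

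Among the members lower in the overactive line, 2 neighbours on chromosome 14 had no overlap between the lines. XLOC_009944 lay in the span of Mycbp2, a ubiquitin ligase of axons. It was at 17.6, 18.6, 14, 18.7 and 19.2 CPM in control saline, 20, 17.2, 14.1, 18.8 and 13 in control amphetamine, 4.23, 2.35, 8.92, 7.61 and 10.7 in overactive saline and 3.66, 8.71, 3.16, 9.76 and 3.54 in overactive amphetamine libraries. Every control library was above every overactive one, and the log2 difference was -1.46 ± 0.25 (adjusted p = 0.00187, edgeR), against -0.03 (adjusted p = 0.706) for Mycbp2. XLOC_009945, 96 bases from Scel (a protein of cornified epithelium) and over the noncoding Gm34907, had 1.94, 2.66 and 3.21 CPM in control and 0.389, 0.811 and 1.44 CPM in overactive libraries (-1.66 ± 0.23, adjusted p = 0.000382). Scel itself was lower by less, at -0.61 (adjusted p = 0.0111). XLOC_017146, 2834 bases from the cohesin gene Smc3, had 1.65, 2.01 and 2.84 CPM against 0.839, 1.16 and 1.56 CPM (-0.84 ± 0.13), again with no overlap, and Smc3 had 0.07 (adjusted p = 0.111).

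Several lower members were close to 0 in the overactive line. XLOC_032942, over the pseudogene Rps13-ps1 shown above, had 1.06, 1.83 and 3.34 CPM in control libraries. It was at 0 in 8 of the overactive libraries, at 0.0225 CPM in overactive saline 5 and at 1.24 CPM in overactive amphetamine 3, which alone reached the control range (-5.36 ± 0.86, adjusted p = 0.00123). XLOC_026890, 976 bases wide and 1321 bases from the repair ligase gene Rad18, had 1 count in the overactive and 916 in the control line, a ratio of 1003 (95% exact counting interval 180 to 39649). Even so, 2 control libraries had none. XLOC_034803, 39736 bases from the iron regulator Ireb2, lay at or under 0.0361 CPM in all overactive libraries and had a control median of 1.38 CPM. With limma-voom neither XLOC_026890 (adjusted p = 0.155) nor XLOC_034803 (0.176) passed, while with edgeR both did (0.000593 and 0.000696). XLOC_032905, 30976 bases from Mcm5 (a subunit of the replication helicase), had medians of 1.80 and 0.0945 CPM (-3.50 ± 0.49), and Mcm5 had -0.60 (adjusted p = 0.00632).

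**Figure D2:**
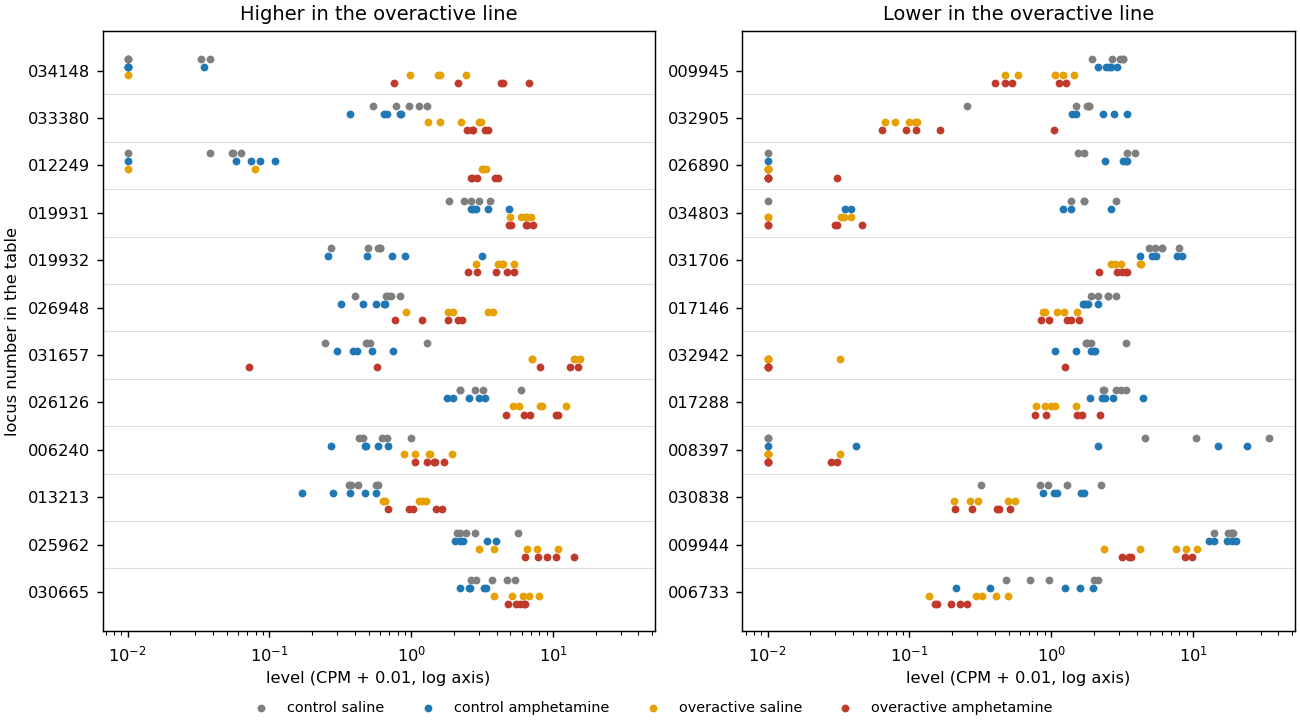
Level of the 24 members with the smallest p between the lines in every library (CPM + 0.01, log axis), 12 higher in the overactive line on the left and 12 lower on the right, coloured by group, so that a library without counts stands at 0.01. XLOC_033380, XLOC_013213, XLOC_009945, XLOC_017146 and XLOC_009944 are those whose lines do not overlap, and in XLOC_012249 and XLOC_031657 2 overactive libraries each lie with the control line.

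Over all members, the lines did not overlap in CPM for 9 (3 above and 6 below in the overactive line), 8 of them called, against 61 of 22146 tested loci (0.275%). XLOC_019728, in the Cwc22 span listed at 0, is among the 6. The lines contributed unequally to some members: 286 had under 250 counts in 1 line, and 63 of these were called. For 23 members the lower line gave under 10% of the counts, the control line for 8 and the overactive line for 15, and 17 of the 23 were called. The rule on the summed count let these in through 1 line alone, so their number is a description.

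Line differences of members were set beside those of their nearest named loci. Of 153 called members whose nearest locus was tested, 34 had a called neighbour, 29 of them in the same direction, and 103 of the 153 pairs had the same sign. Across members, Spearman's rho between both log2 differences was 0.24 in a shared span (370 pairs), 0.23 at 1 to 5000 bases (789), 0.20 at over 5000 and up to 50000 bases (401) and -0.00 beyond (167). Pearson's r, which weighs the few very large differences more, was 0.77, 0.39, 0.16 and -0.04 in the same order. Both values of a pair come from the same libraries, and pairs are not independent. Within groups, the median correlation of a member with its nearest locus over the libraries was 0.156 (1727 pairs), from 0.182 at 1 to 5000 bases to 0.0839 beyond 50000 bases.

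**Figure D3:**
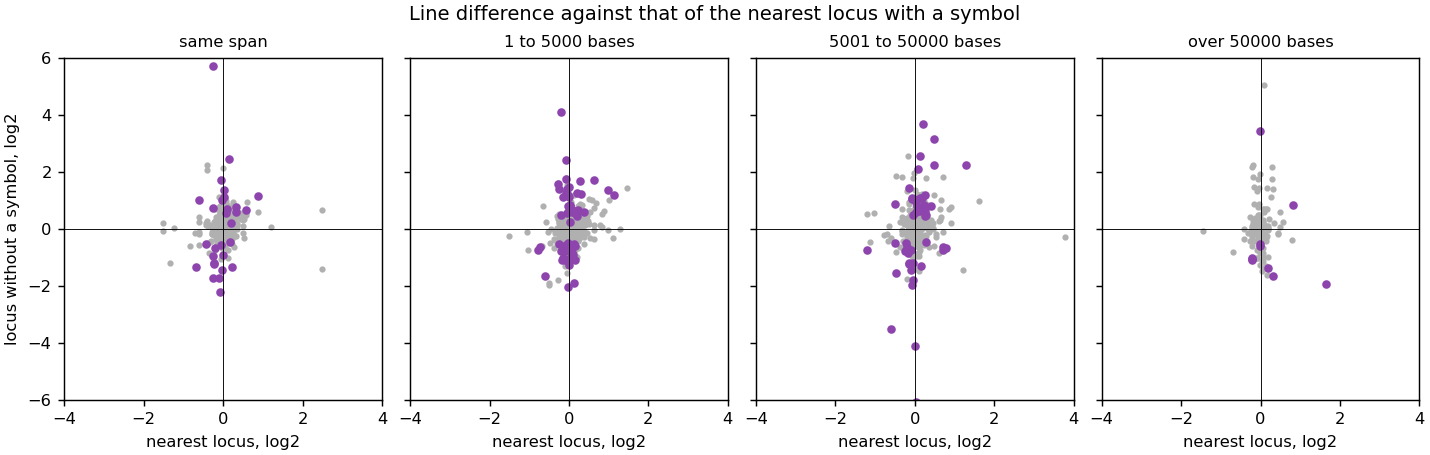
Line difference of each member (log2, vertical axis) against that of its nearest named locus (log2, horizontal axis), by distance class, with members called between the lines in purple and the others in grey. Most called members lie near the vertical axis line, where the neighbour differs by little, and 15 of 1727 pairs lie outside the axes.

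Within treatments fewer members passed. After saline 42 members differed between the lines (25 higher, 17 lower), against 1.3% of all loci tested (0.727% higher, 0.573% lower), and 41 of the 42 were also called over both treatments. The median difference was 0.01 over members and 0.00 over all loci. After amphetamine 20 members passed (11 higher, 9 lower), against 0.61% of all loci (0.298% higher, 0.312% lower), all 20 of them called over both treatments, and 12 passed in both. These counts moved with single libraries. Without overactive saline 3 the saline count was 18, without control saline 3, control saline 5 or overactive saline 4 it was 21, and without control saline 2 it was 25. The amphetamine count was 6 without overactive amphetamine 2, 8 without control amphetamine 5, 9 without overactive amphetamine 5 and 13 without control amphetamine 1 or 2. With the replicate number as a block the counts were 27 and 12, and without the 4 libraries highest in thalamic markers they were 11 and 4.

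Some members stood out in only 1 of these lists, though the difference between treatments was not called for any. XLOC_014728, 347 bases from Cript (a partner of the postsynaptic protein PSD-95), had 4.95, 5.51, 6.89, 5.98 and 3.78 CPM in overactive saline and 2.16, 2.80, 1.83, 2.05 and 1.63 CPM in control saline libraries. These groups did not overlap (1.37 ± 0.26, adjusted p = 0.0164, and 0.0503 without the 4 libraries highest in thalamic markers). After amphetamine the lines overlapped, with 2.00, 2.52, 2.89, 1.22 and 1.71 CPM in overactive and 1.11, 2.12, 1.07, 2.41 and 2.17 CPM in control libraries (0.22 ± 0.26, adjusted p = 0.768). The interaction of line and treatment was -1.15 ± 0.36 with an unadjusted p of 0.00492 and an adjusted p near 1. XLOC_012464, 1170 bases from the ketone enzyme gene Bdh1, passed after amphetamine (-2.78 ± 0.51, adjusted p = 0.0167) and not after saline (-0.99 ± 0.48, adjusted p = 0.31). The first call was lost without overactive amphetamine 2 (0.0557) and without the 4 libraries highest in thalamic markers (0.159).

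Many members were present in some mice and nearly absent in others. A library with 0 counts was found for 161 members (8.21%), all of which reached at least 1 CPM in another. For 56 of these 1 library was at 0 and for 43 it was 5 or more. Such libraries were in both lines for 60, in the control line alone for 60 and in the overactive line alone for 41. Of the 157 tested, 23 were called between the lines, against 7.69% of all loci tested. A stricter description asks for a step: 2 sets of at least 2 libraries each, with every library of the high set at 1 CPM or more and over 5 times every library of the low set. Steps were found in 72 of 1961 members (3.67%), in 145 of 22146 loci tested (0.655%) and in 71 of 17206 named loci tested (0.413%). All 5 members that were not tested have a step and are in the first share, while the other shares cover tested loci only.

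The low set held libraries of both lines in 58 of the 72, of the control line alone in 5 and of the overactive line alone in 9, and no split coincided with a whole line or with a treatment. All 10 overactive libraries were low together with some control ones in 11 members, and all 10 control libraries with some overactive ones in 2. Of the 72, 13 were called between the lines, against 7.69% of all loci tested. Narrow members had steps most often: 24.4% under 1000 bases (20 of 82), 2.54% from 1000 to 5000 (16 of 630) and 2.88% above (36 of 1249). By distance to the nearest named locus, the share was 3.74% in a shared span, 1.06% at 1 to 5000 bases, 5.10% at over 5000 and up to 50000 and 10.4% beyond.

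Of the members with a step, 21 shared their low set with another, in 7 sets, and 1 set stood apart by size. In 8 members on 5 chromosomes the low libraries were control saline 3, control amphetamine 1 and 4, and overactive amphetamine 1 and 2. XLOC_017629 and XLOC_018724, at chr2:77410622-77875047 in the span of Zfp385b, and XLOC_018727 and XLOC_019746, at chr2:78023312-78026281 and chr2:78026411-78027007, lie on both sides of Cwc22. The other 4 were XLOC_009140 on chromosome 13 (chr13:39037212-39037812), XLOC_013376 on chromosome 16 (chr16:89185361-89186263), XLOC_030807 on chromosome 7 (chr7:13499994-13500847) and XLOC_034904 on chromosome 9 (chr9:82702080-82702404). All 4 were under 1000 bases wide, lay 19598 to 125614 bases from a named locus and overlapped no gene of GENCODE M21. Whether they share sequence with the stretch on chromosome 2 was not tested.

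The 8 members followed each other among the high libraries as well. XLOC_018724 had 38.4, 41.2, 1.40, 81.1 and 39.8 CPM in control saline, 1.68, 36.5, 34.2, 0.978 and 76.4 in control amphetamine, 35.6, 52.4, 62.5, 72.3 and 76.3 in overactive saline, and 1.08, 1.24, 54.8, 62.9 and 44.4 in overactive amphetamine libraries. XLOC_034904, on chromosome 9, had 1.5, 1.74, 0, 3.95 and 1.95 CPM, then 0.0739, 1.86, 1.85, 0 and 3.48, then 1.23, 1.93, 3.04, 2.91 and 3.56, then 0.0409, 0, 1.44, 3.77 and 2.17 CPM in the same order. In both, control saline 4 and control amphetamine 5 were the highest of the control line. In XLOC_018724 these 2 lay at 81.1 and 76.4 CPM, and the other 5 high control libraries at 34.2 to 41.2 CPM. All 5 overactive saline libraries were high and 2 overactive amphetamine libraries low, so the amphetamine comparison within that line holds this difference between mice. XLOC_034839 near Smad6 and XLOC_009287 near Mtrr also had 5 low libraries, in each case a different set.

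Between these members lies the Cwc22 span (chr2:77875186-77946372), which XLOC_019725 and XLOC_019728 share. Cwc22 codes for a splicing factor that places the exon junction complex. In the control line Cwc22 lay at 1360, 1452, 29, 2879 and 1476 CPM after saline and 30.6, 1172, 1245, 28.9 and 2729 CPM after amphetamine, low in the same 3 control mice as the 8 members. XLOC_019725 lay at 7.97, 7.93, 0, 16.3 and 6.65 CPM and at 0.0493, 7.89, 6.11, 0.0251 and 16.3 CPM. In the overactive line Cwc22 and both members are listed at 0 in all 10 libraries, while XLOC_018727, 76940 bases from Cwc22, had 4.54 to 12.2 CPM in 8 of these. Both members passed between the lines (adjusted p = 0.00715 and 0.0038, edgeR), and XLOC_019725 did not with limma-voom (0.307). No fold is given for them.

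**Figure D4:**
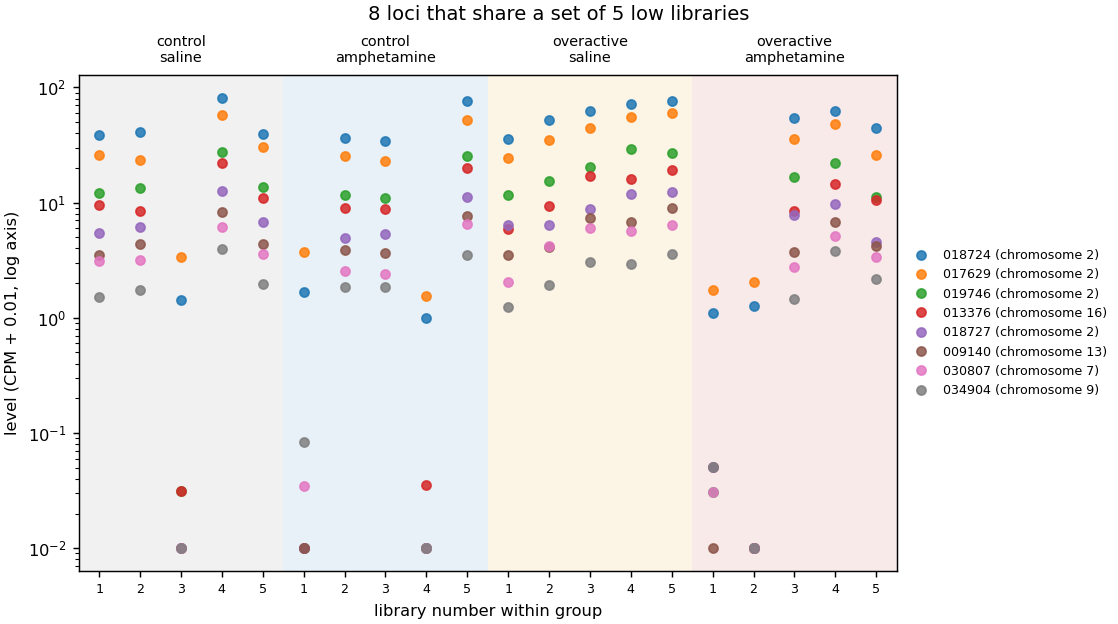
Level in every library (CPM + 0.01, log axis) of the 8 members on 5 chromosomes that share a set of 5 low libraries, 1 colour a member, libraries in columns by group. Control saline 3, control amphetamine 1 and 4 and overactive amphetamine 1 and 2 are low in all 8, and control saline 4 and control amphetamine 5 are the highest control libraries.

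Other stretches were on in part of the control line and nearly off in the overactive line. On chromosome 13, 4 members between chr13:111259863 and 111319151, beside Actbl2 (an actin-like gene), summed to 7.37, 17.4 and 56.5 CPM in 3 control saline and 24.5, 40.0 and 3.39 CPM in 3 control amphetamine libraries. The other 4 control libraries had at most 0.0321 CPM and the overactive libraries at most 0.0541 CPM. Actbl2 was on in the same 6 mice, at 1.67 to 29.7 CPM. XLOC_008397, the largest of the 4, had 3836 counts in the control and 3 in the overactive line, a ratio of 1400 (95% exact counting interval 479 to 6791). It passed with edgeR (adjusted p = 0.00185) and not with limma-voom (0.355). The 6 mice differed among themselves by over 10 times in this stretch.

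XLOC_007149, on chromosome 12 and 28651 bases from Dhrs7, had 0, 9.61, 9.06, 0 and 9.78 CPM in control saline, 12.4, 11, 0, 0 and 0 in control amphetamine, and at most 0.0285 CPM in overactive libraries (adjusted p = 0.00359, edgeR). The call was lost with limma-voom (0.453) and without the 4 libraries highest in thalamic markers (0.0608). XLOC_020033, 460 bases wide and 6476 bases from Phf20 (a chromatin reader) on chromosome 2, was at 0, 6.64, 6.55, 6.22 and 6.94 CPM in control saline and 0.0246, 5.67, 0, 0 and 0 CPM in control amphetamine libraries. It had 0 counts in all 10 overactive libraries, at least 478-fold lower than the control line against a floor of 3 counts over the line (adjusted p = 0.0229, edgeR). The call was lost without control amphetamine 2 (adjusted p = 0.289), with limma-voom (0.366) and without the 4 libraries highest in thalamic markers (0.0923). XLOC_013270 and XLOC_013271, beside Fstl1 on chromosome 16, were on only in control saline 1 and 2, together at 47.0 and 24.6 CPM, with at most 0.116 CPM in any other library. They failed the filter on low counts and were not tested, like XLOC_009798, XLOC_025281 and XLOC_026710.

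The step of XLOC_009101 fell unevenly over the groups. This member of 364 bases on chromosome 13, 5090 bases from the zinc finger gene Zkscan3, lay at 10.6, 10, 10.7, 9.51 and 0.0454 CPM in control saline and 0.0493, 8.69, 10.4, 10 and 10.4 CPM in control amphetamine libraries. All 5 overactive saline libraries had at most 0.0513 CPM, while overactive amphetamine libraries had 10.3, 10, 8.93, 0.0422 and 0.0402 CPM. Its high libraries lay between 8.69 and 10.7 CPM in all 3 groups that had any. The amphetamine difference in the overactive line was 7.28 ± 1.70 with an adjusted p of 0.423, and the line difference after saline -7.76 ± 1.70 (adjusted p = 0.0297). Over both treatments the line difference was -4.10 (adjusted p = 0.0205, edgeR). That call was lost with limma-voom (0.428) and without the 4 libraries highest in thalamic markers (0.104).

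Much of the longest run of members lay in Snhg14, the long noncoding host RNA that is read from the paternal allele in neurons, carries clusters of small nucleolar RNAs and runs antisense to Ube3a. Its 15 members between chr7:59341616 and 59526353 summed to 34.8 to 66.2 CPM in 18 libraries, 14 CPM in overactive amphetamine 4 and 21.8 CPM in overactive saline 4. XLOC_030086, which holds both small nucleolar RNAs printed above, was at 21.9, 21.7, 24.6, 28.6 and 23.1 CPM in control saline and 23.9, 15.1, 19.3, 23.4 and 23.6 CPM in control amphetamine libraries. In overactive saline it was at 24.1, 21.7, 25.4, 0 and 21.3 CPM, and in overactive amphetamine at 22.1, 22.4, 23.1, 0.0211 and 20.1 CPM. Those 2 mice had almost none, and the other 18 lay between 15.1 and 28.6 CPM. In the same 2 mice 12 of the 15 members were at or near 0.

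Not every part of the host RNA was missing in those 2 mice. XLOC_030083, at the end nearest Ube3a, was at 19.4 CPM in overactive saline 4 and 12.8 CPM in overactive amphetamine 4, against 10.5 to 16.6 CPM in the control line. XLOC_030978 was at 1.34 and 0.738 CPM and XLOC_031004 at 0.997 and 0.485 CPM, values that other libraries also had or fell below. XLOC_030975 was at 0 in control saline 4, control amphetamine 2, overactive saline 1 and overactive amphetamine 5 as well. Ube3a, the ubiquitin ligase gene, lay at 104 and 97.1 CPM in the 2 mice, within its 83.8 to 121 CPM in the control line. No member of the stretch was called between the lines, with XLOC_030086 at -0.32 ± 0.53 (adjusted p = 0.759).

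**Figure D5:**
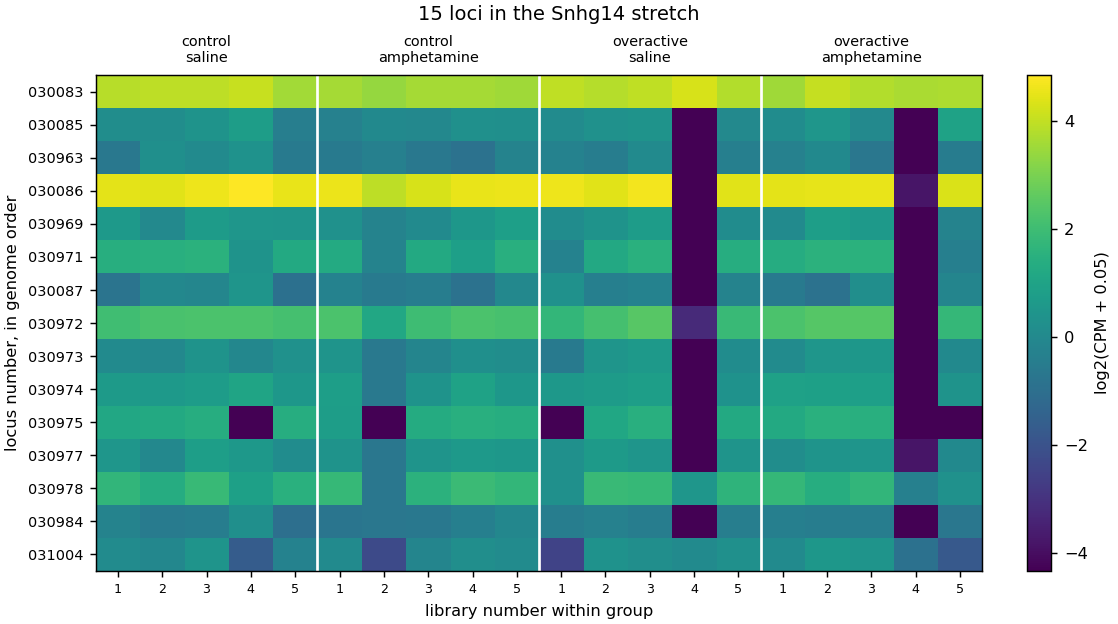
Level (log2 of CPM + 0.05) of the 15 members in the Snhg14 stretch of chromosome 7, rows in genome order and columns the 20 libraries by group. In overactive saline 4 and overactive amphetamine 4, 12 of the 15 members are at or near 0, while XLOC_030083 keeps its level in both.

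Of the 6 called members that hold a microRNA hairpin, 3 were higher in the overactive line. The counts are those of the long locus and not of the mature microRNA, which this kind of library does not measure. XLOC_019931, in the span of Tgm3 (a transglutaminase) with Mir6339, had 3., 3.58, 1.83, 2.36 and 2.63 CPM in control saline, 4.90, 3.49, 2.84, 2.71 and 2.62 in control amphetamine, 5.95, 7., 4.93, 6.41 and 6.48 in overactive saline and 5.05, 6.54, 6.38, 4.85 and 7.15 in overactive amphetamine libraries. Only control amphetamine 1 reached the overactive range (1.03 ± 0.13, adjusted p = 0.000241). XLOC_010215, which spans Cgrrf1 and Samd4 and holds Mir378c, differed by 0.56 ± 0.16 (adjusted p = 0.0379). XLOC_012634, at Mir155 (a microRNA of immune cells), had medians of 0.432 and 1.01 CPM and differed by 1.15 ± 0.34 (adjusted p = 0.0447). That call was lost without the 4 libraries highest in thalamic markers (adjusted p = 0.347), with limma-voom (0.112), with the replicate block (0.0567) and with no filter (0.0505). It was lost as well (0.0536 to 0.0858) without any 1 of control saline 1, 2, 3 and 4, control amphetamine 1, 2, 4 and 5, overactive saline 1, 4 and 5, and overactive amphetamine 2, 3 and 5.

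The other 3 were lower. XLOC_031706, in the span of Neto2 (an auxiliary subunit of kainate receptors) with Mir8109, had 4.21, 5.74 and 8.37 CPM in control and 2.15, 3.13 and 4.30 CPM in overactive libraries (-0.94 ± 0.14, adjusted p = 0.000766), and Neto2 had -0.26 (adjusted p = 0.0849). XLOC_010531, over the noncoding 9330188P03Rik of GENCODE M21 with Mir6390, was the most counted of the 6. It lay at 30.9, 29.5, 35.0, 34.3 and 36.8 CPM in control saline, 31.6, 28.1, 27.2, 27.7 and 35.6 in control amphetamine, 21.3, 30.6, 22.1, 23.3 and 23.1 in overactive saline and 19, 20.6, 30.8, 20 and 18.5 in overactive amphetamine libraries. All but 2 overactive libraries were below every control library (-0.47 ± 0.09, adjusted p = 0.00498). XLOC_009955, which also holds Mir6390, did not pass (-0.26, adjusted p = 0.0637, edgeR). XLOC_033699, over Mir135a-1 on chromosome 9, differed by -0.81 ± 0.23 (adjusted p = 0.0353). Without the 4 libraries, neither XLOC_033699 (adjusted p = 0.172) nor XLOC_010215 (0.082) passed. Single libraries also decided both calls. XLOC_033699 was lost (adjusted p 0.0527 to 0.0638) without any 1 of control saline 1, 3 and 5, control amphetamine 1 and 5, overactive saline 3 and 4, and overactive amphetamine 1, 2 and 3. XLOC_010215 was lost (0.0523 to 0.0745) without any 1 of control saline 1, 2, 3 and 5, control amphetamine 2, 4 and 5, overactive saline 3 and 4, and overactive amphetamine 1, 2 and 4.

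No member passed edgeR's test for amphetamine. It called 0 members over both lines, 0 in the control line, 0 in the overactive line and 0 for the difference between the lines in the response, and 0% of all loci in each. At an unadjusted p under 0.05 there were 156, 110, 107 and 54 members, against 10.1%, 5.32%, 7.18% and 2.86% of all loci tested. The cortical and hippocampal markers had a median log2 difference of 0.61 for amphetamine over both lines, with 0 of 13 loci called, and their part was not tested. The comparisons over both lines share their libraries with those within a line. limma-voom called 0 in all 4, and DESeq2 called 10 over both lines, 7 in the overactive line and 0 in the others. The smallest adjusted p over all loci was 0.228 over both lines, 0.842 in the control and 0.343 in the overactive line.

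The members with the smallest p for amphetamine are given by their values. XLOC_014049, in the span of the cytokine signalling inhibitor Socs5, was at 1.24, 0.952, 0.829, 0.265 and 0.159 CPM in control saline, 2.00, 2.15, 2.08, 0.351 and 0.572 in control amphetamine, 0.154, 0.0989, 0, 0.114 and 0 in overactive saline and 0.737, 0.934, 1.91, 0.527 and 1.95 in overactive amphetamine libraries. The overactive groups did not overlap and the control groups did. Its log2 difference, amphetamine minus saline, was 2.55 ± 0.51 over both lines (adjusted p = 0.228) and 4.05 ± 0.79 in the overactive line (adjusted p = 0.343, edgeR, and 0.000233 with DESeq2). Socs5 had 0.06 over both lines.

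XLOC_003284, whose span lies within Nav3 (a neuron navigator) in GENCODE M21, was at 2.21, 1.26, 1.42, 1.24 and 1.27 CPM in control saline, 2.88, 3.69, 2.72, 2.66 and 2.03 in control amphetamine, 1.74, 1.63, 1.20, 1.45 and 1.53 in overactive saline and 2.78, 1.12, 1.97, 3.29 and 2.43 in overactive amphetamine libraries. Overactive amphetamine 2 was the 1 amphetamine library below the saline range of its line. The difference was 0.77 ± 0.17 (adjusted p = 0.228, edgeR, and 0.00797 with DESeq2), and with edgeR it was the 1 member to pass without overactive amphetamine 2 (adjusted p = 0.0493) and without the 4 libraries highest in thalamic markers (0.0449).

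XLOC_015114, in the span of Dlgap1 (a scaffold of the postsynaptic density), had the opposite sign, with -0.51 ± 0.11 (adjusted p = 0.228, edgeR, and 0.00575 with DESeq2), while Dlgap1 had 0.33 (adjusted p = 0.237). Its saline libraries lay at 2.49 to 3.26 CPM in the control and 2.20 to 3.39 CPM in the overactive line, and its amphetamine libraries at 1.5 to 2.32 and 1.80 to 2.72 CPM. XLOC_008189, 5958 bases from Smad5 (a mediator of BMP signals), was at 9.08, 6.68, 8.30, 9. and 9.12 CPM in overactive saline and 14.5, 11.1, 13.2, 16.4 and 15.7 CPM in overactive amphetamine libraries. These groups did not overlap (0.75 ± 0.15, adjusted p = 0.343, edgeR, and 0.00148 with DESeq2), and in the control line the difference was 0.07 ± 0.14. XLOC_013436, within Pde10a (a phosphodiesterase of striatal projection neurons) in GENCODE M21, had 0.363 to 0.553 CPM in control saline and 0.596 to 1.19 CPM in control amphetamine libraries (1.05 ± 0.26, adjusted p = 0.842). Pde10a had 0.15 there (adjusted p = 0.941).

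At the rule's edge, XLOC_016082 and XLOC_009671 had 500 counts and XLOC_010895 had 501. Just outside it, XLOC_032765 and XLOC_027917 had 499 and XLOC_026797 had 498. XLOC_016082 had 0.0251 to 0.905 CPM in control and 0.461 to 1.05 CPM in overactive libraries, and XLOC_027917 had 0.0238 to 1.24 and 0.361 to 0.922 CPM. A member at this edge thus lay near 1 CPM or below in most libraries.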

How the data were processed

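Striatal RNA of 20 mice was sequenced, and 1 table of expected counts per locus was deposited by the authors, with a symbol and a span but not scaled between samples (93.9% of values whole within 0.01). The submitters' processing notes name mm10 and GRCm38. The aligner, assembler, counter and use of strand are not given in the sources used here. Spans were read as 1-based by adding 1 to the start.

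Expected counts were rounded and fitted in R 4.3.3 with edgeR 4.0.16 over all loci (filterByExpr on the 4 groups, 22146 left, TMM scaling, 1 mean per group, quasi-likelihood F test, two-sided, Benjamini-Hochberg over all loci tested, threshold 0.05). The 7 comparisons were line over both treatments and within each, amphetamine over both lines and within each, and the interaction. CPM uses TMM library sizes. Each SE after ± was computed as the size of the log2 difference over the square root of F. It is approximate and can mislead for loci near 0 in a group. For XLOC_012249 it was 1.06 for the line difference after saline and 1.01 after amphetamine, but 0.41 for the interaction. Intervals (95%) and floors (3 counts) cover counting error only. On simulated data over 21651 loci for the line comparison, the changed loci were all members. The test found 10% of 50 members changed by 1.5 times and 52% of 50 changed by 2 times. At 3 times and at 4 times it found 86% of 50 each, with 5 false among 122 calls.

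Positions and gene kinds came from GENCODE M21 and microRNAs from RefSeq (GRCm38.p6), matched by overlap. Sequences of the other members were not used here. Members named were the 12 with the smallest p per direction between the lines, the 5 per direction in each other comparison, the 10 largest sums, the 5 largest sums per kb, the widest, the narrowest, 3 on each side of the sum of 500 and those at 0 in a whole line. Loci with steps, hairpins, shared stretches or the smallest amphetamine p were added after their values were seen. Members, lists and tests were chosen with earlier results of these data known. Alternatives used DESeq2 1.42.0 and limma-voom 3.58.1, other scalings and filters, a replicate block and each library left out. The limma-voom fit weighted libraries by estimated quality, from 0.709 (overactive saline 5) to 1.53 (control amphetamine 3). The fit without 4 libraries was chosen after seeing the data. Tables and figures were made with Python 3.11.15, pandas 2.3.3, scipy 1.17.1 and matplotlib 3.10.9.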

Additional observations from a re-analysis of the deposited data

Results flagged for a closer look

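Within groups of 5, 204 sets of values of 51 named loci were screened, 3 of which lie just under the summed count of 500 and are not members, and in 16 of them 1 library stood apart from the other 4 by more than 0.71 of the whole range. Chance flags about 1 in 20 such groups. The values are CPM.

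Control saline 4 was apart in 4 members: high in XLOC_031657 (1.28, others 0.237 to 0.504), XLOC_026126 (5.94, others 2.20 to 3.21) and XLOC_025962 (5.63, others 2.09 to 2.80), and low in XLOC_032905 (0.243, others 1.48 to 1.84). Control saline 1 was apart in 3: high in XLOC_032942 (3.34, others 1.74 to 1.90), low in XLOC_009671 (0.421, others 1.01 to 1.18) and at 0 in XLOC_020033, where the others had 6.22 to 6.94. Control saline 3 was high in XLOC_026797, 1 of the 3 that are not members (2.83, others 0.552 to 0.840). Control amphetamine 1 was high in XLOC_019932 (3.15, others 0.251 to 0.898) and had 0.0246 in XLOC_034148, the others 0. Control amphetamine 2 was high in XLOC_020033 (5.67, others at most 0.0246).

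In the overactive line, overactive amphetamine 3 was high in XLOC_032942, over the Rps13 pseudogene (1.24, others 0), and overactive amphetamine 1 in XLOC_032905 (1.04, others 0.0541 to 0.156). The rest were single counts among libraries at 0: 0.0211 in overactive amphetamine 4 for XLOC_026890, and 0.0225 in overactive saline 5 for both XLOC_032942 and XLOC_008397.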

How the results depend on the processing

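The number of members called between the lines was 179. It was 181 with RLE size factors, 176 with upper quartile scaling, 159 without a filter, 156 with at least 1 CPM in 5 libraries, 182 over loci without a symbol alone, 216 with limma-voom and 268 with DESeq2. It was 135 to 193 with each library left out, 65 with the 4 thalamic-marker-rich libraries left out, and 96 and 51 for members with sums of at least 1000 and 2000, which are fewer members. After saline the 42 became 127 with DESeq2, 11 without the 4 libraries and 18 to 50 with a library left out. After amphetamine the 20 became 60 with DESeq2, 9 with only the groups compared, 4 without the 4 libraries and 6 to 18 with a library left out. For amphetamine against saline, DESeq2 called 10 over both lines and 7 in the overactive line, the fit without the 4 libraries called 1 over both lines, and leaving out a library gave 0 to 1 over both lines and 0 to 0 in each line and for the interaction. The cause of these changes was not tested. No named result changed direction.

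With the replicate number as a block, the counts were 168 over both treatments (148 of them among the 179), 27 after saline and 12 after amphetamine, with 70.4% and 66.7% of the saline and amphetamine calls higher in the overactive line, against 59.5% and 55.0% without it. Without the 4 libraries 81.8% of the saline calls were higher. Libraries that share a number had mostly weak correlations (30 pairs, r from -0.221 to 0.290, median 0.00455, 4 above 0.1). Of the 30, 9 correlated best with their own number. These correlations cannot show whether such libraries shared a batch or litter, which was not tested.

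Of the 24 members named for the line difference, all passed under each scaling, filter, block and left-out library (480 of 480 fits) and without the 4 libraries. The exceptions were in limma-voom: XLOC_026890 (adjusted p = 0.155), XLOC_034803 (0.176) and XLOC_008397 (0.355). DESeq2 gave an adjusted p for 23 of them. In the simulated data, where the changes were placed in members alone, 10% of changes of 1.5 times were called. Recovery was not split by level within the members.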
